A study of Mus musculus with 24 samples.

Results

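The genes described here are the class I histone deacetylases Hdac1, Hdac2, Hdac3 and Hdac8 and 4 of the corepressors that carry them, Sin3a, Sin3b, Ncor1 and Rcor1, in the hippocampus of C57Bl/6 mice. They were taken as every array probe whose gene name in the scanner files is one of these 8 symbols, which gave 20 probes of 41174 on the array. Each array holds the hippocampal RNA of 1 mouse, 24 arrays in 6 groups of 4. Young fear mice (3 months) and old fear mice (16 months) spent 3 min in a conditioning context, received a foot shock of 0.7 mA for 2 s, and had their hippocampi taken 1 h later. Young context mice saw the same context with no shock, and young shock-context mice, titled only by the shock in the labels, were shocked on entry and explored the context afterwards per their description and the design text; both were 3 months old and were sampled after 1 h. Young control (3 months) and old control (16 months) mice were handled only. No group carries a transgene per the labels, the sex of the mice is not given in the sources used here, and all 12 markers of hippocampal excitatory neurons were measured above background.

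Class I deacetylases remove acetyl groups from histone tails, and all but Hdac8 do so mainly inside larger complexes. Hdac1 and Hdac2 sit together in the Sin3, NuRD and CoREST complexes, built on Sin3a or Sin3b, on chromodomain helicases, and on Rcor1, while Hdac3 is bound by the nuclear receptor corepressor Ncor1. In mouse hippocampus, Hdac2 is known as a brake on synaptic plasticity and memory, and Hdac3 as a negative regulator of long-term memory.

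The control and fear arrays were scanned as a run of 16 arrays on 4 slides, each slide holding 1 array of each of these 4 groups, and the context and shock-context arrays as a run of 8 arrays on 2 slides. Run and treatment therefore cannot be told apart where a context or shock-context group is set against a control or fear group. The signal at the 75th percentile ranged from 756.6 to 2137.1 in the first run and from 3100.6 to 8368.9 in the second, and 86.6 to 94.0% and 75.5 to 81.7% of probes were well above background. Young fear arrays stood apart within their run: their mean correlation with young control arrays over all probes was 0.968, against 0.987 between old fear and young control arrays. Old control array 2 also stood apart, with correlations of 0.9496 to 0.956 with the other old control arrays, which had 0.9892 to 0.9937 among themselves. Levels below are scaled log2 signals, log2 of the processed signal minus the array's own 75th percentile, so that 0 is that percentile; they are compared within a probe and never between probes. Differences come from limma with 18 residual degrees of freedom, with p-values adjusted by Benjamini-Hochberg over all tested probes (38768 in most comparisons) and a threshold of 0.05, while each SD is over the 4 mice of a group and each SE takes a spread shared by all 6 groups. The fit treats the 4 arrays of a group as independent.

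Hdac1, Hdac3 and Sin3a are read by 1 probe each, Hdac2 and Hdac8 by 2, Sin3b and Rcor1 by 3 and Ncor1 by 7. Probes on which the results for Hdac2, Sin3b, Rcor1 and Ncor1 turn are shown with their mm9 positions from the file headers of the context and shock-context arrays, read on the strand of the probe. Hdac2 probe 1 and Rcor1 probe 3, whose 60 bases are spread over 135 and 929 genomic bases, are given whole, and for the others 30 bases are given; capitals mark AATAAA, the textbook polyadenylation signal. The 3 Sin3b probes are shown because they moved in different directions, and the others because the results for Hdac2, Rcor1 and Ncor1 turn on them.
Hdac2 probe 1, chr10:36713455-36713589, + strand, whole: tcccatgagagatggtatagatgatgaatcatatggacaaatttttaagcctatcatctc
Sin3b probe 1, chr8:75263729-75263788, + strand, last 30 bases: ttctagttgactttctacagtAATAAAatg
Sin3b probe 3, chr8:75277763-75277822, + strand, last 30 bases: tcagaaattgagggtaggatgatgacatat
Sin3b probe 2, chr8:75281993-75282052, + strand, last 30 bases: acctccatttgcagctgttttgaatgtagg
Rcor1 probe 3, chr12:112347115-112348043, + strand, whole: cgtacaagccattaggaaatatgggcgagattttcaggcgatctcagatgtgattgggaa
Rcor1 probe 1, chr12:112351412-112351471, + strand, first 30 bases: gggttgctAATAAAtgttctgagacttcag
Ncor1 probe 3, chr11:62233143-62233202, - strand, last 30 bases: acagagtatggaccgggtagaccgagagat
Ncor1 probe 6, chr11:62138461-62138520, + strand, last 30 bases: aatgtcatgtagcttagctattcaggttac
AATAAA was looked for in the probe's own direction and occurred in 2 of the 20 probes, against 4.78% of all 41174 probes; its reverse complement occurred in 0 of the 20 and in 4.25% of all probes. Sin3b probe 1 is named in the headers for a second RefSeq transcript of the gene and lies 5′ of the other Sin3b probes. Ncor1 lies on the - strand in RefSeq, so that its probes 5, 6 and 7 are on the strand opposite to the gene. RefSeq entries used here give no strand for Hdac1 and Hdac3, and exons, introns and untranslated regions of this build were not used here.

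At 3 months, fear conditioning was set against handling to ask which hippocampal transcripts differ 1 h after training. Hdac3 and Sin3a had higher signals in young fear than in young control mice, and Hdac1 slightly so, by a call lost in some alternative fits. Hdac2 probe 1 and Rcor1 probes 2 and 3 were higher too, but lost their calls with another background correction (normexp). Hdac2 probe 2 and Rcor1 probe 1 did not pass the test, nor did Hdac8. The Sin3b probes went both ways. For Ncor1, probe 3 was lower, and the only probe called higher, probe 6, lies on the strand opposite to the gene. In all 11 of the 20 probes passed the test, 8 higher, Ncor1 probe 6 among them, and 3 lower, from 7 of the 8 genes. This stands against a background of 44.6% of all probes, 17.2% higher and 27.5% lower. The median difference over the 20 probes was 0.38 log2 units, against -0.274 over all probes. This lean of the background depends on the scaling. Of all called probes 38.5% were higher, against 52.1% with quantile scaling, 52.5% with median scaling and 51.4% in the deposited values. In these alternatives the median over all probes was -0.081, -0.131 and -0.042. With normexp 32.6% were higher and the median was -0.5. Groups did not overlap for 13 of the 20 probes, against 42.0% of all probes.

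Hdac1, the founding class I enzyme, had levels of 1.75, 1.84, 1.65 and 1.56 in young fear mice, against 1.38, 1.20, 1.51 and 1.5 in young control mice. The groups did not overlap, although the lowest fear array and the highest control arrays lay close together. The difference was 0.30 ± 0.10 (SE; adjusted p = 0.0214 by limma, 1.23-fold), and it was smaller on slides 3 and 4 (0.14 and 0.06) than on slides 1 and 2 (0.38 and 0.64). The call was lost without young fear array 1 (adjusted p = 0.0534), without young fear array 2 (0.0709), without young control array 2 (0.0810), with the slide as a replicate block (0.0521), with pairs of arrays as a random block (0.0656) and with a fit on the young fear and young control arrays alone (0.0734).

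Hdac2 probe 1, named for the RefSeq transcript, was at -0.46, -0.66, -0.69 and -0.68 in young fear mice, against -1.51, -1.27, -1.97 and -1.74 in young control mice. Every fear array lay above every control array, and the difference was 1.00 ± 0.18 (adjusted p = 0.000159, 2.00-fold). Within slides it ranged from 0.62 to 1.28. Background correction by normexp in place of the scanner's own lowered it to 0.66, with an adjusted p of 0.0625. Hdac2 probe 2, named for a cDNA clone, averaged -5.13 ± 0.32 in young fear and -5.17 ± 0.32 in young control mice (SD, n = 4 each), with overlapping groups and an adjusted p of 0.868 by limma.

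Hdac3, the enzyme of the nuclear receptor corepressor complexes, had levels of 1.77, 1.69, 1.74 and 1.76 in young fear mice, against 1.29, 1.11, 1.59 and 1.11 in young control mice. The fear arrays lay close together and above all controls. The difference was 0.47 ± 0.10 (adjusted p = 0.000774, 1.38-fold), higher on each of the 4 slides. Hdac8, an X-linked class I enzyme that acts outside these complexes, was the deacetylase with no called probe in the main fit. Of the calls among the deacetylases, only that of Hdac3 held under every alternative. Its probe 1 averaged -2.06 ± 0.19 in young fear and -1.89 ± 0.15 in young control mice (SD, n = 4 each; adjusted p = 0.242 by limma). Its probe 2 averaged -3.22 ± 0.20 and -2.86 ± 0.28 in the same groups (SD, n = 4 each; adjusted p = 0.12 by limma), and both probes had overlapping groups.

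Sin3a and Sin3b are the paralogous scaffolds of the Sin3 complex, to which DNA-binding repressors dock. Sin3a had levels of 0.55, 0.55, 0.20 and 0.14 in young fear mice, against -0.24, -0.12, 0.03 and -0.30 in young control mice. The groups did not overlap, and the difference was 0.52 ± 0.11 (adjusted p = 0.000623, 1.43-fold). It was higher on all 4 slides, by 0.17 to 0.78. The median of all probes fell by 0.274 in this comparison, and relative to that median Sin3a was higher by 0.79, Hdac3 by 0.74, Hdac2 probe 1 by 1.28 and Hdac1 by 0.58. That median depends on the scaling, as given above.

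The leading probe of a gene is that of its highest mean signal. The 3 Sin3b probes all differed between young fear and young control mice, but in opposite directions. Probe 1, the leading probe, had levels of 3.09, 3.01, 2.32 and 2.83 in young fear mice, against 4.35, 4.54, 4.14 and 4.05 in young control mice. Probe 3 followed it with -1.87, -1.80, -2.61 and -2.09 in young fear mice, against -0.40, -0.69, 0.15 and -0.09 in young control mice. Within slides the differences were -1.25, -1.53, -1.81 and -1.22 for probe 1 and -1.46, -1.11, -2.76 and -2.01 for probe 3. Fear arrays lay below all control arrays for both, by 1.45 ± 0.14 for probe 1 (2.74-fold lower, adjusted p = 6.48e-08) and 1.84 ± 0.32 for probe 3 (3.57-fold lower, adjusted p = 8.28e-05).

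Probe 2, the most 3′ of the 3 and named for the RefSeq transcript, went the other way. Its levels were 3.56, 3.56, 2.86 and 2.82 in young fear mice, against 2.53, 2.56, 2.18 and 2.11 in young control mice. All fear arrays were above all controls, by 0.86 ± 0.19 (1.81-fold, adjusted p = 0.0012). A direction for Sin3b as a gene therefore cannot be given from this array. Over the 16 control and fear arrays, probe 2 correlated with probe 1 at r = -0.59 and with probe 3 at -0.79, and probes 1 and 3 at 0.69; these arrays share slides and scaling. Opposite calls within a gene were common, since 38.9% of the 3017 genes with at least 2 called probes had both signs in this comparison.

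**Figure D1:**
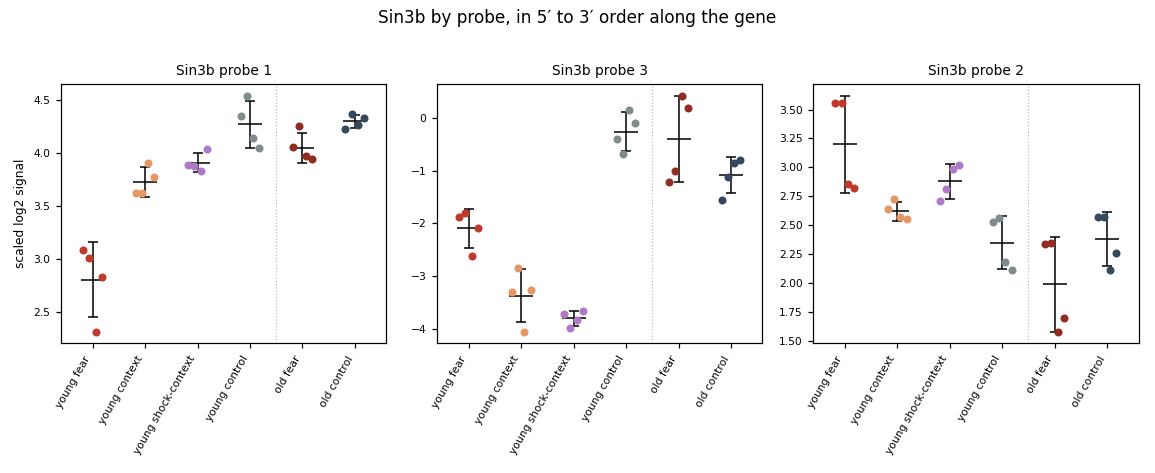
Scaled log2 signal (vertical axis) of the 3 Sin3b probes in 5′ to 3′ order along the gene, by group; points are arrays and bars the mean and SD of 4 mice. Young fear mice average 2.81 against 4.27 in young control mice for probe 1, and 3.20 against 2.35 for probe 2, so that the probes run in opposite directions, while old fear and old control arrays overlap in each panel.

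Rcor1, the scaffold that joins Hdac1 and Hdac2 to the demethylase Kdm1a in the CoREST complex, was higher in young fear mice by all 3 probes, of which 2 passed the test. Probe 3 was at -3.75, -3.73, -3.42 and -3.33 in young fear mice, against -5.15, -5.05, -4.87 and -4.96 in young control mice. No arrays of the groups came near each other, and the difference was 1.45 ± 0.12 (2.73-fold, adjusted p = 8.36e-09). With normexp background correction it was 0.22 with an adjusted p of 0.758, so that this call depends on how the background of a dim probe is handled. Probe 2 averaged -1.80 ± 0.11 in young fear and -2.37 ± 0.20 in young control mice (SD, n = 4 each), a difference of 0.57 ± 0.12 (SE; adjusted p = 0.000852 by limma), which also missed the threshold with normexp (0.409).

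Rcor1 probe 1, the leading probe, did not pass the test although its groups did not overlap. It had levels of 1.74, 1.65, 1.19 and 1.10 in young fear mice, against 0.44, 0.24, -0.16 and 0.74 in young control mice, a difference of 1.10 ± 0.55 with an adjusted p of 0.108. All 6 groups share the estimate of spread, and old control array 2 was at -3.28 while the other old control arrays were at 0.87, 0.54 and 0.29. Without that array the difference was 1.10 ± 0.18 with an adjusted p of 3.46e-05, and with only the arrays compared in the fit it was 0.00422.

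Ncor1, the platform that holds and activates Hdac3, showed no common direction over its 7 probes. Only probe 3, the most 5′ in the gene, fell: it was at -1.10, -1.07, -0.89 and -0.98 in young fear mice, against -0.70, -0.51, 0.21 and -0.02 in young control mice. The groups did not overlap and the difference was -0.75 ± 0.22 (1.68-fold lower, adjusted p = 0.00808). The other probes on the strand of the gene differed by 0.26 ± 0.26 (probe 1), 0.29 ± 0.21 (probe 2) and 0.18 ± 0.11 (probe 4), with overlapping groups and adjusted p of 0.193 to 0.421.

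On the strand opposite to Ncor1, probe 6 was at -2.23, -2.15, -2.25 and -2.27 in young fear mice, against -2.81, -2.63, -2.79 and -2.71 in young control mice. These groups did not overlap, with a difference of 0.51 ± 0.13 (adjusted p = 0.00254), which was 0.14 with normexp (adjusted p = 0.748). Probes 5 and 7 on that strand differed by 0.49 ± 0.21 and 1.08 ± 0.47 (adjusted p = 0.0644 and 0.0706 by limma). Probe 7 was well above background on 22 of 24 arrays, all but 1 young control and 1 old control array, whose values stayed in the fit.

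**Figure D2:**
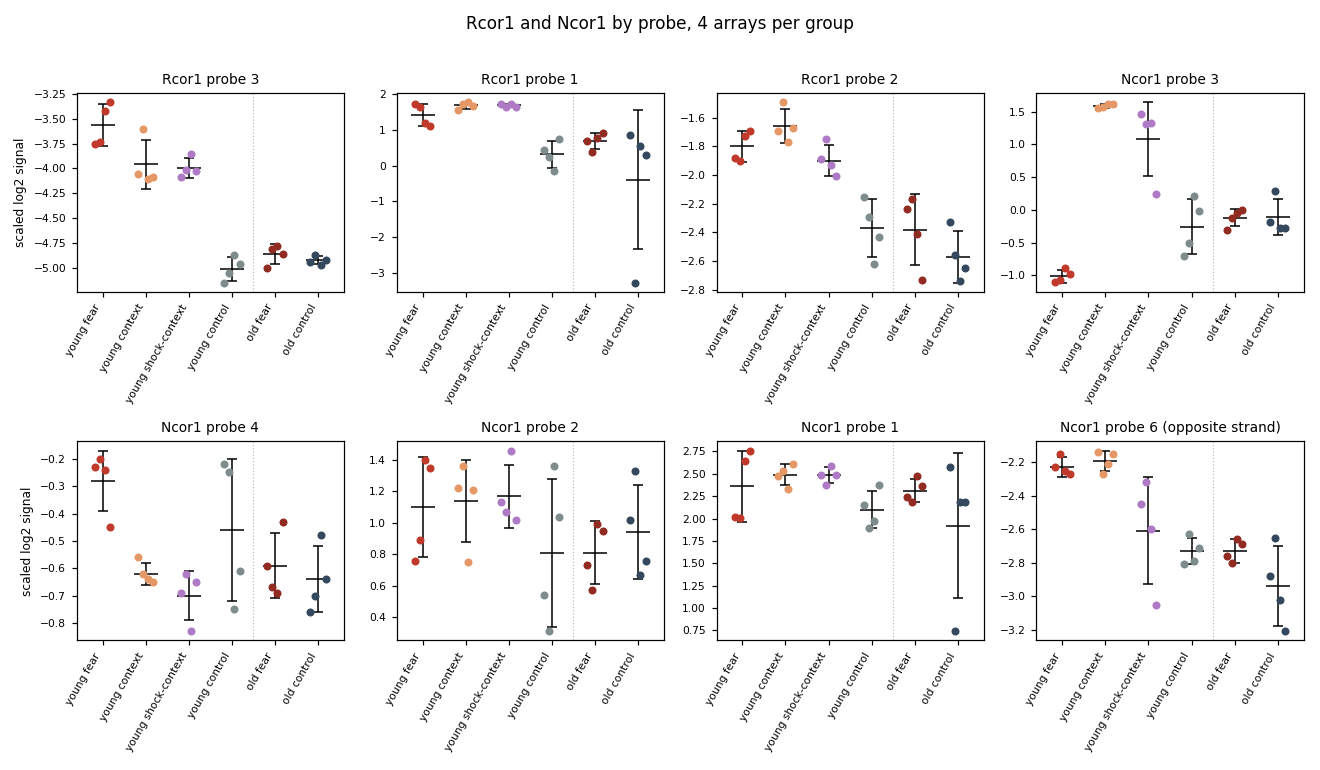
Scaled log2 signal (vertical axis) of the 3 Rcor1 probes, the 4 Ncor1 probes on the strand of the gene and Ncor1 probe 6 on the opposite strand, by group; points are arrays and bars the mean and SD of 4 mice. Rcor1 averages are higher in young fear than in young control mice in each panel, whereas of the Ncor1 probes shown probe 3 is lower (-1.01 against -0.26) and probe 6 higher (-2.23 against -2.73).

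At 16 months the same comparison gave no call among the 20 probes, against a background of 0.126% of all probes (49 of 38768); 2 of the 20 had an unadjusted p under 0.05 by limma. No probe had groups that did not overlap, against 7.68% of all probes. Hdac2 probe 1 was at -1.27, -1.18, -2.06 and -1.91 in old fear mice, against -1.88, -1.47, -1.29 and -1.61 in old control mice, a difference of -0.04 ± 0.18 (adjusted p = 0.942). Hdac3 was at 1.13, 1.09, 1.19 and 1.16 in old fear mice, against 1.30, 1.54, 1.19 and 1.26 in old control mice (-0.18 ± 0.10, adjusted p = 0.446). The groups overlapped for both probes.

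Sin3b probe 1 was at 4.06, 4.25, 3.97 and 3.94 in old fear mice, against 4.23, 4.37, 4.26 and 4.33 in old control mice, a difference of -0.25 ± 0.14 (adjusted p = 0.441). Rcor1 probe 3 was at -5.00, -4.81, -4.78 and -4.86 in old fear mice, against -4.94, -4.87, -4.97 and -4.92 in old control mice (0.06 ± 0.12, adjusted p = 0.844). The fear and control arrays overlapped for both probes. The probes with an unadjusted p under 0.05 were Ncor1 probe 7 (1.34 ± 0.47, adjusted p = 0.239), for which old control array 2 was at -7.17 and the other old control arrays at -3.83, -4.09 and -4.47, and Sin3b probe 3 (0.68 ± 0.32, adjusted p = 0.362).

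Hdac1 was at 1.31, 1.23, 1.60 and 1.48 in old fear mice, against 1.27, 1.65, 1.52 and 1.46 in old control mice, and Sin3a at -0.26, -0.22, -0.27 and -0.32, against -0.23, 0.16, -0.08 and -0.09. For Sin3a, 1 old control array lay within the range of the old fear arrays and 3 above it. Sin3b probe 2 was at 2.34, 2.35, 1.58 and 1.70 in old fear mice, against 2.57, 2.57, 2.11 and 2.26 in old control mice (-0.38 ± 0.19, adjusted p = 0.397). Probe 3 of the same gene was at -1.21, -1.0, 0.41 and 0.19 in old fear mice, against -1.55, -1.12, -0.86 and -0.79 in old control mice. For both Sin3b probes arrays 1 and 2 of the old fear group lay on the other side of its mean from arrays 3 and 4, and within slides probe 3 differed by 0.33, 0.12, 1.27 and 0.98. Hdac8 did not pass at this age either, with differences of -0.14 ± 0.11 (probe 1, adjusted p = 0.615) and -0.35 ± 0.19 (probe 2, adjusted p = 0.424).

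The difference between the responses, old fear minus old control less young fear minus young control, passed the test for 7 of the 20 probes, 2 higher and 5 lower, against 25.9% of all probes, 14.3% higher and 11.5% lower. These were Sin3b probe 3 (2.51 ± 0.45, adjusted p = 0.00032), Sin3b probe 1 (1.21 ± 0.19, 0.000123), Sin3b probe 2 (-1.24 ± 0.28, 0.00202), Rcor1 probe 3 (-1.39 ± 0.16, 5.37e-06), Hdac2 probe 1 (-1.04 ± 0.26, 0.00506), Sin3a (-0.73 ± 0.15, 0.00144) and Hdac3 (-0.64 ± 0.14, 0.002). Each had the opposite sign to the difference at 3 months, which it contains. For Hdac1 the responses differed by -0.37 ± 0.15 with an adjusted p of 0.0682, which passed with quantile (0.0233) and median scaling (0.0297), the deposited values (0.00648), the filter on all arrays (0.0489) and the slide as a random block (0.0479), and without old control array 1 (0.0318) or old fear array 3 (0.034). For Hdac8 they differed by 0.03 ± 0.16 (probe 1) and 0.02 ± 0.27 (probe 2). For Rcor1 probe 1 they differed by -0.02 ± 0.78 (adjusted p = 0.99), with old control array 2 in the fit. Without that array the responses differed by -0.98 ± 0.26 (adjusted p = 0.00722 by limma). With normexp the adjusted p was 0.24 for Hdac2 probe 1, 0.0825 for Sin3a and 0.908 for Rcor1 probe 3.

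**Figure D3:**
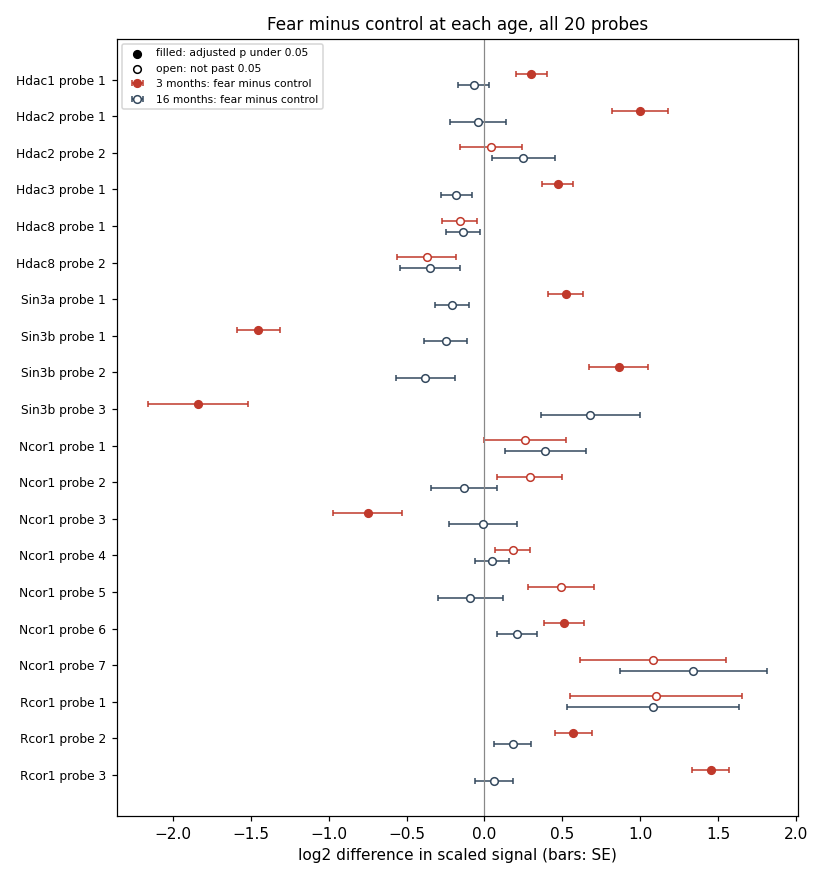
Log2 difference in scaled signal, fear minus control (horizontal axis; bars are SE), for all 20 probes at 3 months (upper point of each row) and 16 months (lower point); filled points have an adjusted p under 0.05. At 3 months 11 of 20 points are filled, from -1.84 (Sin3b probe 3) to 1.45 (Rcor1 probe 3), and at 16 months 0 are.

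Between the ages of handled mice, old control minus young control, 0 of the 20 probes passed, which is near the background of 0.547% of all probes (212 of 38768); 1 of the 20 had an unadjusted p under 0.05 by limma. That probe, Sin3b probe 3, was at -1.55, -1.12, -0.86 and -0.79 in old control mice, against -0.40, -0.69, 0.15 and -0.09 in young control mice. Its groups did not overlap (-0.82 ± 0.32, adjusted p = 0.366). After fear conditioning, old minus young mice differed for 13 of the 20 probes, 3 higher and 10 lower, against 39.9% of all probes, 22.9% higher and 17.0% lower. Sin3b probe 1 averaged 4.05 ± 0.14 in old fear and 2.81 ± 0.35 in young fear mice (SD, n = 4 each), Hdac2 probe 1 averaged -1.60 ± 0.44 and -0.62 ± 0.11, and Rcor1 probe 3 averaged -4.86 ± 0.10 and -3.56 ± 0.21. With normexp the difference of Rcor1 probe 3 turned to 0.27 (adjusted p = 0.699), and that of Hdac2 probe 1 was -0.64 (adjusted p = 0.0662). Rcor1 probe 1 did not pass (-0.73 ± 0.55, adjusted p = 0.317). It passed without old control array 2 (adjusted p = 0.00202) and with only the arrays compared (0.0101). This comparison shares the young fear arrays with that against young control mice.

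Context and shock-context exposure were included to set apart what follows training from what follows its components, and their comparisons with control and fear mice carry the scan run with them. Of the 20 probes, 11 passed in context minus control (68.8% of all probes did), 10 in shock-context minus control (65.4%), 11 in young fear minus context (65.9%) and 13 in young fear minus shock-context (64.9%). Between shock-context and context mice, which share a run, 0 of the 20 passed, and 0.0% of all probes did; by limma 2 of the 20 and 2188 of 38766 probes had an unadjusted p under 0.05.

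Hdac1 and Hdac3 were highest in young fear mice also against these groups. Hdac1 averaged 1.70 ± 0.12 in young fear mice, 1.15 ± 0.05 in context and 1.19 ± 0.11 in shock-context mice (SD, n = 4 each), differences of 0.55 ± 0.10 and 0.50 ± 0.10 (SE; adjusted p = 0.000104 and 0.00027 by limma). Hdac3 averaged 1.74 ± 0.03, 1.00 ± 0.10 and 1.14 ± 0.10 in the same groups, 0.74 ± 0.10 and 0.60 ± 0.10 higher in young fear mice. Neither had overlapping groups. The median of all probes was itself higher in young fear mice, by 0.311 against context and 0.305 against shock-context, and relative to it the differences were 0.24 and 0.20 for Hdac1 and 0.43 and 0.29 for Hdac3. Hdac8 probe 1 averaged -2.06 in young fear, -1.72 in context and -1.73 in shock-context mice and was lower in young fear mice by 0.33 ± 0.11 against each (adjusted p = 0.0147 and 0.017 by limma), with groups that overlapped against context and not against shock-context. Both calls were lost with normexp (0.632 and 0.605) and without young fear array 4 (0.0712 and 0.0807). The call against context was also lost without context array 2 (0.0561) and with only the arrays compared (0.0548), and that against shock-context without shock-context array 3 (0.0676). Hdac8 probe 2 passed against neither group (adjusted p = 0.682 and 0.925).

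Sin3b probe 1 averaged 2.81 ± 0.35 in young fear mice, against 3.73 ± 0.14 in context and 3.91 ± 0.09 in shock-context mice, and was lower in young fear mice by 0.92 ± 0.14 and 1.09 ± 0.14 (fits by limma, adjusted p = 8.47e-06 and 1.15e-06). Probe 3 did not keep this order: it averaged -3.37 ± 0.50 in context and -3.80 ± 0.14 in shock-context mice, below the -2.09 ± 0.37 of young fear mice and the -0.26 ± 0.37 of young control mice. Hdac2 probe 1 averaged -0.95 ± 0.21 in context mice, 0.67 ± 0.18 above young control mice (adjusted p = 0.00284 by limma, 0.211 with normexp), and young fear minus context did not pass (0.33 ± 0.18, adjusted p = 0.125, or 0.0464 with only the arrays compared), although these groups did not overlap. Shock-context minus control passed (0.47 ± 0.18, adjusted p = 0.0303 by limma) with overlapping groups. That call was lost with normexp (0.536), with the deposited values (0.0678) and without young control array 3 (0.113) or 4 (0.0702) or shock-context array 2 (0.0758) or 3 (0.0611). Young fear minus shock-context passed too (0.53 ± 0.18, adjusted p = 0.016) with no overlap, but not with quantile (0.0569) or median scaling (0.236), normexp (0.15) or the deposited values (0.0672).

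Rcor1 was above young control mice in both exposure groups by all probes: probe 3 by 1.04 ± 0.12 in context and 1.01 ± 0.12 in shock-context mice, probe 2 by 0.72 ± 0.12 and 0.48 ± 0.12, and probe 1 by 1.37 ± 0.55 in each. The calls of probe 1 (adjusted p = 0.0322 and 0.0337 by limma) were lost without young control array 2 (0.0587 and 0.0615), young control array 3 (0.0826 and 0.0856), context array 2, 3 or 4 (0.0543, 0.0598 and 0.0538 for context) or any of the 4 shock-context arrays (0.0522 to 0.0597 for shock-context). The differences themselves stayed at 1.21 or more under every alternative. Adjusted p ranged from 1.04e-06 to 0.0931 for context and from 1.28e-06 to 0.0968 for shock-context. The shared spread of this probe includes old control array 2 (-3.28), which is in neither comparison. With normexp, probe 3 changed sign in both comparisons and probe 2 lost both calls. Ncor1 probe 3 averaged 1.59 ± 0.03 in context and 1.08 ± 0.57 in shock-context mice, against -0.26 ± 0.42 in young control mice, so that young fear (-1.01 ± 0.10) and the exposure groups lay on opposite sides of the controls. Whether the run or the exposure set these levels cannot be told apart.

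Over the 6 groups, in order of the mean of the leading probe, Hdac1 and Hdac3 were highest in young fear mice and lowest in context mice, and Hdac8 was highest in context mice and lowest in young fear mice. The context and shock-context groups lie in another run than the other groups, so run and exposure cannot be told apart in these orders. With median scaling, context minus young control turned to 0.11 for Hdac1 and 0.07 for Hdac3, so their lowest rank depends on the scaling. For Hdac2 the order was young fear, context, shock-context, old control, old fear and young control, and of the neighbours in it young fear (-0.62) and context (-0.95), and shock-context (-1.15) and old control (-1.56), had arrays that did not overlap. For Sin3b probe 1 only the last step, from context (3.73) down to young fear (2.81), was free of overlap. For Hdac3 only the first, young fear (1.74) above old control (1.32), was, and for Rcor1 probe 1 only young fear (1.42) above old fear (0.69). For Hdac1, Hdac8, Sin3a and the leading Ncor1 probe all neighbouring groups overlapped.

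Other genes listed for these complexes, as subunits or partners, also differed at 3 months, in both directions. They are counted by the leading probe of each gene against a background of 13.2% of genes higher and 30.4% lower in young fear mice. Of 18 measured genes listed for the Sin3 complex 6 were higher and 6 lower, of 13 for NuRD 6 and 3, of 9 for CoREST 2 and 2, of 7 for the NCoR complex and its partners 4 and 2, and of 3 for MiDAC 1 and 0. Median differences were -0.07, 0.36, -0.04, 0.58 and -0.03 in that order of complexes, against -0.34 over all leading probes. At 16 months 0 of these 50 genes passed by limma, against 0.138% of genes, and 5 had an unadjusted p under 0.05; the lists and members were picked with earlier results of these data in view.

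The directions of the named genes, in this paragraph and the next, are those of the leading probe alone. Any other probes of these genes are not shown. Of genes with at least 2 called probes, 38.9% had both signs in young fear minus young control and 37.0% between the responses. Named by the smallest adjusted p, the Sin3 complex members were the PHD-finger protein Phf12 (1.12 ± 0.13, adjusted p = 7.96e-07 by limma), Sap25 (0.75 ± 0.11) and Arid4b (0.54 ± 0.09), which rose, and Sap30l, which fell (-0.84 ± 0.12). In NuRD, the scaffold proteins Gatad2b (1.54 ± 0.16, adjusted p = 1.5e-07) and Gatad2a (0.88 ± 0.08) and the Hdac-binding Mta2 (0.54 ± 0.08) rose. Rbbp4, the histone chaperone shared by NuRD and Sin3, fell by 1.53 ± 0.10 (2.88-fold, adjusted p = 7.13e-10), with a mean of 1.95 in young fear and 3.48 in young control mice.

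In CoREST, the zinc-finger protein Zmym2 (0.71 ± 0.08) and the Rcor1 paralog Rcor3 (0.48 ± 0.17) rose, while Hmg20b (-1.13 ± 0.22) and the other paralog, Rcor2 (-0.65 ± 0.15), fell. In the NCoR group, Gps2 (1.27 ± 0.31), the ligand-dependent corepressor Nrip1 (0.88 ± 0.11), Tbl1x (0.64 ± 0.17), which helps exchange corepressors for coactivators, and Coro2a (0.58 ± 0.09) rose. Trerf1 of MiDAC rose by 0.63 ± 0.09. The 2 ages differed in response for 4 higher and 2 lower Sin3 genes, 2 and 6 in NuRD, 2 and 1 in CoREST, 0 and 2 in NCoR and 0 and 1 in MiDAC, against 16.1% of genes higher and 8.14% lower. The smallest adjusted p were those of Rbbp4 (1.40 ± 0.13, adjusted p = 8.53e-07), Gatad2a (-1.0 ± 0.11), Phf12 (-1.16 ± 0.18) and Gatad2b (-1.32 ± 0.22).

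Markers of neighbouring tissue and of other cell types differed between young fear and young control mice, and those of thalamus also between old fear and old control mice. At 16 months 1 of 9 microglia markers passed too: Tmem119 was lower in old fear mice (-0.44 ± 0.08, adjusted p = 0.0345 by limma). All 15 measured choroid plexus markers were lower in young fear than in young control mice (median -3.66), and 0 of 15 passed at 16 months, where 2 had an unadjusted p under 0.05 by limma. Their summed signal, in units of each array's 75th percentile, was 10.42 to 16.53 in young fear mice, against 92.16 to 154.85 in young control mice, and 89.91 to 102.53 in old fear against 94.92 to 150.1 in old control mice. Of 15 thalamus markers, 11 were higher and 1 lower at 3 months and 6 higher at 16 months. Their sum was 28.03 to 31.5 in young fear and 20.37 to 24.81 in young control mice, and 36.31 to 47.2 in old fear and 24.17 to 29.43 in old control mice. The thalamus marker Shox2 was not well above background on any young control array, and every choroid plexus marker was on at least some arrays of each group. The sums of the other 6 marker lists did not overlap at 3 months either. Those of astrocytes were 176.19 to 182.61 in young fear and 239.94 to 277.24 in young control mice (2 of 9 genes higher, 4 lower), of microglia 21.99 to 24.09 and 28.29 to 35.23 (1 and 3 of 9), of interneurons 121.25 to 138.01 and 138.04 to 171.16 (1 and 3 of 9). Those of endothelial and mural cells were 21.92 to 22.68 in young fear and 23.23 to 30.71 in young control mice (3 and 3 of 10), and of excitatory neurons 138.6 to 145.05 and 145.8 to 153.59 (2 and 3 of 12). Oligodendrocyte and myelin markers were higher in sum, at 164.08 to 178.58 in young fear and 133.84 to 143.46 in young control mice (5 and 3 of 10). The part of these tissues and cell types in the differences of the deacetylase and corepressor genes was not tested. In RNA from whole tissue, fewer cells of a type and less RNA per cell cannot be told apart.

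The genes whose leading probe was most like that of a member over the 16 control and fear arrays, by Pearson correlation, were Zfp595 (0.99) and Enox1 (0.988) for Rcor1, Sirt3 (0.985) and Fn3k (0.984) for Sin3b, H1f0 (0.967) and Ednrb (0.965) for Sin3a, Nob1 and Rasl11a (0.963 each) for Hdac3, and Cdk19 (0.954) and Hnrnpa1l2-ps (0.945) for Hdac2. Hdac1 reached 0.907 with Nucb1 and Zbtb22, Ncor1 0.955 with Septin3 and 0.954 with Coq9, and Hdac8 0.852 with AI661453 and 0.83 with 8030423F21Rik. These correlations describe arrays that share slides, scaling and treatment groups, and for Rcor1 and Ncor1 they include the low value of old control array 2. Between probes of a gene the correlation was 0.80 for Hdac8, -0.08 for Hdac2, 0.43 to 0.81 for Rcor1 and -0.82 to 0.85 for Ncor1.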

How the data were processed

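Hippocampal RNA of 24 mice (600 ng each) was labelled with Cy3 and hybridised to 1-colour Agilent arrays of 60-base probes, per the labels' protocols. The deposited scanner files hold processed signal intensity from Agilent Feature Extraction 9.5.3.1, background subtracted, per the file headers. The authors' deposited value table holds log2 values with a median of 8.57 to 8.573 per array, which rank spots as the mean signal does (Spearman correlation of at least 0.9997); its normalization stays unknown and it was used as an alternative. The submitters' processing notes name limma.

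Control spots were left out, spots marked as outliers were set to missing, spots of a probe were averaged, and log2 intensity was scaled by each array's 75th percentile. The test took the 38768 probes, from 26089 genes, that the scanner marked well above background on 4 or more of the 24 arrays. It used limma 3.58.1 in R 4.3.3, with 6 group means in the fit, 10 comparisons, two-sided, and Benjamini-Hochberg adjustment. None of the 20 member probes was lost to this filter or saturated. The fit was tested on simulated data. The number of arrays limits the precision.

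The replicate number is the slide for control and fear arrays. Same-numbered arrays of different groups had deviations correlated above 0.1 in 15 of 24 pairs (-0.42 to 0.65), and the mice were treated as unpaired. The consensus correlation was 0.182 with the slide and 0.371 with array pairs as a random block, so the arrays were not fully independent. With array pairs as a block, 13205 of 38768 probes passed in young fear minus young control, against 17307 in the main fit. Positions come from the headers of the context and shock-context arrays (mm9; the others use mm7), and RefSeq names and strands from GRCm38.p6.

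Members and lists were chosen with earlier results of these data known, and 2 genes of the complexes are not reported here and not counted. All member probes are named, with the 4 genes of smallest adjusted p in each complex and the 2 most correlated genes of each member. Alternatives were quantile and median scaling, normexp with an offset of 50, no filter, a filter on all arrays, the leading probe of each gene, the deposited values, slide and array pairs as blocks, only the arrays compared, and leaving out each array.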

Additional observations from a re-analysis of the deposited data

Results flagged for a closer look

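The response to fear conditioning differed between 16 and 3 months for 7 probes, tested as the interaction in limma: Sin3b probe 3 by 2.51 ± 0.45 log2 units, Sin3b probe 1 by 1.21 ± 0.19, Sin3b probe 2 by -1.24 ± 0.28, Rcor1 probe 3 by -1.39 ± 0.16, Hdac2 probe 1 by -1.04 ± 0.26, Sin3a by -0.73 ± 0.15 and Hdac3 by -0.64 ± 0.14 (SE). Of all probes 25.9% differed in this way.

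An array stood far from the other 3 of its group in 8 of 120 combinations of probe and group, where chance flags about 1 in 20. The widest was Rcor1 probe 1 in old control array 2, at -3.28 against 0.29 to 0.87 in the others. Ncor1 probe 3 in shock-context array 4 was at 0.24 against 1.31 to 1.47. Ncor1 probe 5 was at -1.65 in young fear array 4 against -1.54 to -1.52, at -2.56 in old fear array 2 against -2.24 to -2.17, and at -2.67 in context array 3 against -2.15 to -2.06. Rcor1 probe 3 in context array 2 was at -3.60 against -4.11 to -4.06. Hdac2 probe 1 in young fear array 1 was at -0.46 against -0.69 to -0.66, and Ncor1 probe 4 in young fear array 4 at -0.45 against -0.24 to -0.20.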

How the results depend on the processing

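Of the 11 probes called in young fear minus young control, 6 kept their call and direction under every alternative run (Hdac3, Sin3a, the 3 Sin3b probes and Ncor1 probe 3), as did 4 of the 7 called between the ages' responses (Hdac3 and the 3 Sin3b probes). With normexp the number of called probes was 7 in young fear minus young control, 4 between the responses, 7 in old fear minus young fear, 7 in context minus control, 5 in shock-context minus control, and 7 in young fear minus context and minus shock-context each. With the leading probe of each gene, which leaves 8 probes, the numbers were 5, 4, 5, 5, 3, 5 and 6. With median scaling, young fear minus shock-context had 6. Leaving out 1 array gave 10 to 13 called probes in young fear minus young control, 7 to 9 between the responses, 11 to 14 in old fear minus young fear, 8 to 12 and 6 to 11 in context and shock-context minus control, and 10 to 11 and 11 to 13 in young fear minus context and shock-context; the other 3 comparisons stayed at 0. With the slide as a replicate block, 10 probes were called in young fear minus young control, 8 between the responses, 11 in old fear minus young fear and 0 in old fear minus old control.

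Signs turned, with normexp, for old minus young fear in Ncor1 probe 6 (0.15) and Rcor1 probe 3 (0.27), and for Rcor1 probe 3 in context (-0.25) and shock-context (-0.22) minus control. They turned with median scaling for Hdac1 (0.11) and Hdac3 (0.07) in context minus control, and for Hdac3 (0.25) and Sin3b probe 1 (0.02) in shock-context minus control. With quantile scaling and the deposited values they turned for Hdac2 probe 2 in shock-context minus control (0.90 and 0.18) and young fear minus shock-context (-0.43 and -0.05), and for Rcor1 probe 3 in young fear minus context (-0.07 and -0.06) and minus shock-context (-0.07 and -0.05). The cause was not tested. Of all called probes in young fear minus young control 38.5% were higher, against 52.1% with quantile scaling, 52.5% with median scaling and 51.4% in the deposited values, and the median of all probes was -0.274, -0.081, -0.131 and -0.042. Dim probes, Rcor1 probe 3 and Hdac2 probe 2 above all, are the least certain.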
